A study of Mus musculus with 6 samples.

Results

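The expression of 47 mitosis and G2/M genes was compared between DN NK and cNK cells, both natural killer (NK) cells of the mouse spleen. Natural killer cells are innate lymphocytes that kill infected and transformed cells. The members were taken by exact gene name from the deposited table, and all 47 were found among its 27763 gene rows. Both groups came from wild type C57BL/6 mice aged 6 weeks and hold 3 poly(A) RNA libraries each. By its title, the series is about spleen-resident NK cells at an immature stage and about T-bet, a transcription factor, in their maturation. What DN and c stand for, which markers separated the cells and whether each library is a different mouse are not given in the labels. Coordinates are on GRCm38.

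Division genes are transcribed mainly in the G2 and M phases. Cyclin-dependent kinase 1, bound to A- and B-type cyclins, drives cells into mitosis, where condensin compacts the chromosomes and kinetochores attach them to spindle microtubules. The spindle checkpoint holds back the anaphase-promoting complex (APC/C), a ubiquitin ligase, until all chromosomes are attached, and the central spindle then guides cytokinesis. Promoters of many of these genes carry a CHR element, with the core TTTGAA, which recruits the DREAM and B-MYB-MuvB complexes, and CCAAT boxes bound by the factor NF-Y. NK cells proliferate mostly while they develop and after activation by cytokines or infection.

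Most mitosis and G2/M genes were lower in DN NK than in cNK cells. Of the 42 members tested, 38 fell past an adjusted p of 0.05, 2 rose (Cenpa and Smc4) and 2 did not pass the test (Ccnf and Incenp). The share that fell was 90.5%, against 30.9% of all 11690 rows tested, and 30.8% of all rows rose. The median log2 fold change of DN NK over cNK was -1.05 over the tested members and -0.02 over all tested rows. Of the 42 tested members, 23 were at least 2-fold lower and past the threshold, against 4.69% of all tested rows. At least 3-fold lower were 7 of the 42, against 1.34% of all tested rows. Both counts hold members that entered the test only through the cNK libraries, named in the next paragraph. In bulk RNA, fewer dividing cells and less RNA per dividing cell cannot be told apart.

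The test took rows with at least 1 FPKM (fragments per length of transcript, scaled to depth) in at least 3 libraries. Of the tested members, 31 reached 1 FPKM in all 6 libraries. Among these, 27 fell, 2 rose and 2 did not pass, with a median log2 fold change of -0.94, against 31.5% of 10182 such rows lower, 29.8% higher and a median of -0.03. The other 11 reached 1 FPKM in fewer than 3 DN NK libraries and passed the filter only through the cNK libraries, which favours genes lower in DN NK, so that all 11 were lower is given as a description. These 11 were Nuf2, Spc25, Cenpe, Nek2, Aurkb, Hmmr, Kif2c, Cdk1, Ccnb1, Cdca8 and Ncapg. The count of members at least 2-fold lower given above includes all of them but Cenpe. The count at least 3-fold lower includes Nuf2 and Hmmr. Both counts are therefore also given as a description. The counts and medians by role given below include them, and stand beside 30.9% of all tested rows lower and 30.8% higher. The 5 members that were not tested were Ttk, Cenpf, Knl1, Anln and Cdc25c. In a fit without the filter, all 47 members were tested and 42 were lower, 2 higher and 3 not past, against 16.0% of all rows lower and 15.3% higher. The values of the 5 untested members given below come from that fit. All 3 DN NK values lay below all 3 cNK values for 43 members, against 39.3% of the tested rows and 20.6% of all rows. They lay above for 2 members, against 31.0% of the tested rows and 21.8% of all rows, and overlapped for Incenp and Knl1.

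The levels were low in both groups. The members' FPKM summed to 144, 146 and 152 in DN NK libraries 1 to 3, against 244, 264 and 253 in cNK libraries 1 to 3. The median member lay at 1.34, 1.42 and 1.43 FPKM in DN NK libraries, against 2.95, 3.30 and 3.08 FPKM in cNK libraries. A single gene, Smc4, made up a large part of the DN NK sum. Without it the sums were 110.5, 113 and 119.9 FPKM in DN NK and 217, 233 and 222 FPKM in cNK. In the cNK group the most abundant member averaged 42.7 times the least abundant one on the FPKM scale.

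No library stood far from its group in the summed level of the members. DN NK replicate 3 held the highest DN NK value of 27 members and replicate 1 the lowest of 23, while in the cNK group replicate 2 held the highest value of 28 and replicate 1 the lowest of 26. The highest DN NK sum nevertheless lay well below the lowest cNK sum.

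**Figure D1:**
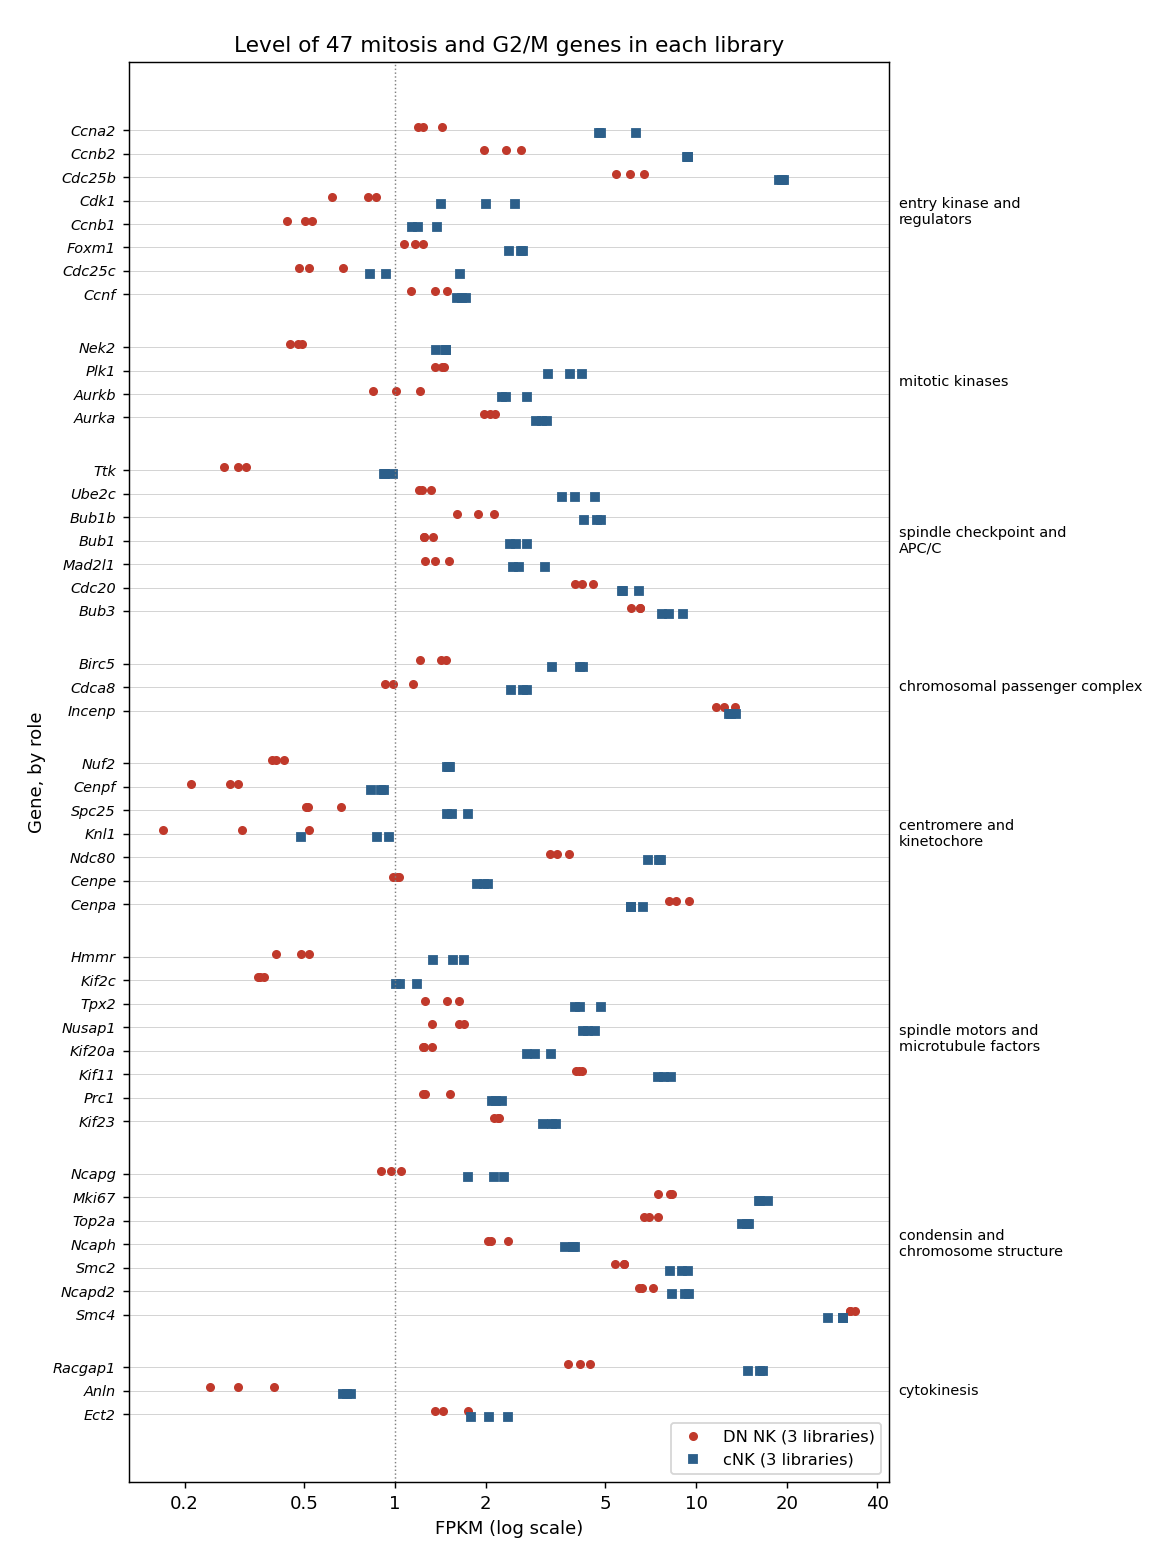
FPKM of the 47 mitosis and G2/M genes (log axis) in each DN NK library (red circles) and cNK library (blue squares), ordered by role. The groups are apart for 45 genes, with DN NK below for 43 and above for Cenpa and Smc4; the dotted line marks 1 FPKM.

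Depth was 79798234 to 81437724 estimated counts in DN NK and 84270567 to 89526647 in cNK libraries, where 1 read pair is worth about 3.78 estimated counts. The labelled cell type was checked with 10 NK genes, which summed to 2653 to 3009 FPKM in DN NK and 4890 to 5063 FPKM in cNK libraries, all 10 above 1 FPKM in both groups and 9 of 10 lower in DN NK. Markers of other cells also moved with the groups. Summed B cell markers lay at 39.5 to 52.0 FPKM in DN NK and 2.61 to 3.08 FPKM in cNK (7 of 7 tested genes higher), plasma cell markers at 52.2 to 61.8 FPKM in DN NK and 22.5 to 24.1 FPKM in cNK (3 of 3 higher), and T cell markers at 668 to 706 FPKM in DN NK and 512 to 530 FPKM in cNK (8 of 8 higher). Most of the T cell sum came from Trbc1 and Trbc2, with Trbc1 averaging 424 FPKM in DN NK and 359 FPKM in cNK. Some other T cell markers differed far more. Cd3d averaged 38.5 FPKM in DN NK and 4.54 FPKM in cNK, and Cd4 3.51 FPKM in DN NK and 0.0160 FPKM in cNK. Erythroid markers lay at 42.7 to 61.0 FPKM in DN NK and 33.2 to 40.8 FPKM in cNK (3 of 4 higher). Among them Klf1 was at 0 in cNK and in DN NK replicates 2 and 3, and at 0.130 FPKM in DN NK replicate 1. ILC2 and ILC3 markers lay at 22.6 to 24.9 FPKM in DN NK and 14.2 to 16.5 FPKM in cNK (3 of 3 higher, with Il22 at 0 in cNK). Stroma and endothelium markers lay at 14.6 to 15.5 FPKM in DN NK and 10.7 to 11.8 FPKM in cNK (1 of 1 higher). Nearly all of that sum was Pecam1, which averaged 14.9 FPKM in DN NK and 11.2 FPKM in cNK. Col1a1, the next most abundant, averaged 0.149 FPKM in DN NK and 0.136 FPKM in cNK. Dendritic cell markers, led by Itgax, lay at 151 to 161 FPKM in DN NK and 200.1 to 213 FPKM in cNK (1 lower and 2 higher of 3). Monocyte and macrophage markers (6.44 to 7.12 FPKM in DN NK, 6.81 to 7.88 in cNK, 0 of 1 called), platelet markers (0.740 to 1.11 in DN NK, 0.821 to 1.11 in cNK, none tested) and neutrophil markers (0.151 to 0.617 in DN NK, 0 in cNK, none tested) were low. The part of any of these cells in the result for the members was not tested.

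Because members moved together, their promoters were read from RefSeq windows on GRCm38.p6, which run from 250 bases before to 50 bases after a gene's start. A window was at hand for 39 of the 47 members, not for Foxm1, Kif20a, Ccna2, Aurkb, Incenp, Cdc25c, Tpx2 and Smc4. The motif TTTGAA was searched on both strands, so a copy on the opposite strand reads TTCAAA. The motif CCAAT was searched in the same way. Its copies on the opposite strand read ATTGG, and the 2 motifs can share at most 1 base. The 6 stretches below, each 100 bases before to 25 bases after the start, were chosen after the values were seen. They show members that fell by large and by moderate amounts (Ccnb2, Racgap1, Ube2c and Kif11), the member that rose most (Cenpa) and a strongly lower member without TTTGAA (Cdc25b). Capitals mark the motifs, and each is printed 5′ to 3′ on the gene's own strand.
Ccnb2, chr9:70421530-70421654, minus strand: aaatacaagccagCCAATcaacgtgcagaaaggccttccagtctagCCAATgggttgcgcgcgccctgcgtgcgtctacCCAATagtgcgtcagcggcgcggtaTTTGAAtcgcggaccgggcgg
Racgap1, chr15:99651632-99651756, minus strand: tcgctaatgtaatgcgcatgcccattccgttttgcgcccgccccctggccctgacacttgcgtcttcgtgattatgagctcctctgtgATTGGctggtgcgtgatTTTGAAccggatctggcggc
Ube2c, chr2:164769829-164769953, plus strand: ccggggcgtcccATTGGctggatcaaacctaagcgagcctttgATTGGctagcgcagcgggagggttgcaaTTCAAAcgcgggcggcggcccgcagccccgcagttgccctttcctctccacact
Kif11, chr19:37376282-37376406, plus strand: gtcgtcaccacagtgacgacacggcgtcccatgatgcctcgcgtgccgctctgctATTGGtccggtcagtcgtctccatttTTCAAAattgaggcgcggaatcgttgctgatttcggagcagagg
Cenpa, chr5:30666786-30666910, plus strand: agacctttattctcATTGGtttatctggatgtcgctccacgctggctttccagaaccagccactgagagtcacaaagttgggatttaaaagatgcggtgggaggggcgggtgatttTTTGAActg
Cdc25b, chr2:131186848-131186972, plus strand: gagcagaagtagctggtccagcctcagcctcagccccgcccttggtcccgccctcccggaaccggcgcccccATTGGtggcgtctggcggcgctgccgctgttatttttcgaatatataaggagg

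TTTGAA stood in the windows of 29 of the 39 members, or 74.4%, against 20.2% of 27025 genes with a window and 14.3% of the 7843 tested genes with one. In 26 members a copy began within 50 bases before the start or after it. CCAAT stood in 30 members, or 76.9%, against 41.1% of all genes and 43.0% of tested genes, and 20 members held at least 2 copies. Both motifs shared a window in 25 members, or 64.1%, against 7.97% of all genes and 5.83% of tested genes. Members with and without TTTGAA both fell. Tested members with TTTGAA, 25 in number, had a median log2 fold change of -1.0, and the 10 without it (Birc5, Bub1, Ccnb1, Cdc25b, Cenpe, Mad2l1, Ncaph, Nek2, Nuf2 and Nusap1) had -1.35. Both sets hold members that passed the filter only through cNK, among those without it Ccnb1, Cenpe, Nek2 and Nuf2. Whether the medians differ was not tested. Cenpa, which rose, held both motifs, as the printed stretch shows. A match describes these letters in these windows only, and no binding was measured.

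Among the 8 entry kinase and regulator genes, 7 were tested and 6 fell, with a median log2 fold change of -1.30. Their FPKM summed to 12.8, 14.6 and 14.4 in DN NK libraries, against 41.6, 44.5 and 41.6 in cNK libraries. Cyclin A2 (Ccna2, ENSMUSG00000027715, chr3:36564865-36572150) partners CDK2 in S phase and CDK1 in G2. It lay at 1.19, 1.24 and 1.43 FPKM in DN NK and 4.84, 6.32 and 4.75 FPKM in cNK, so every DN NK library was far below every cNK library. Its log2 fold change was -1.98 ± 0.13 (SE), a 3.94-fold lower level and the largest estimate of any tested member (edgeR adjusted p = 5.76e-06). Its exons overlap those of Exosc9 on the other strand over 12.5% of their length, and Exosc9 averaged 3.36 FPKM in DN NK and 3.90 FPKM in cNK.

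Cyclin B2 (Ccnb2, ENSMUSG00000032218, chr9:70407692-70421547) is found largely at the Golgi and activates CDK1. Ccnb2 lay at 1.97, 2.61 and 2.34 FPKM in DN NK, against 9.35, 9.44 and 9.39 FPKM in cNK, where the 3 libraries were nearly equal. It was 3.90-fold lower in DN NK (log2 fold change -1.96 ± 0.12, edgeR adjusted p = 3.81e-06). Cyclin B1 (Ccnb1), the main mitotic cyclin, was less abundant, at 0.530, 0.501 and 0.437 FPKM in DN NK and 1.14, 1.38 and 1.2 FPKM in cNK. The groups were again apart, with a 2.40-fold lower level in DN NK (-1.26 ± 0.15, edgeR adjusted p = 0.000114). The FPKM ratio of Ccnb2 to Ccnb1 ran between 3.72 and 5.36 in DN NK libraries and between 6.86 and 8.19 in cNK libraries. Both cyclins have pseudogene rows whose reads could be shared, Ccnb1-ps at 0.0222 to 0.0731 FPKM in DN NK and 0.108 to 0.240 in cNK, and Ccnb2-ps at 0.242 to 0.605 in DN NK and 0.429 to 0.887 in cNK.

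Cdk1 itself, the kinase of mitotic entry, lay at 0.814, 0.867 and 0.619 FPKM in DN NK and 1.42, 2.51 and 2.01 FPKM in cNK. The cNK libraries were more spread than for most members, yet all lay above the DN NK ones, and the level was 2.46-fold lower in DN NK (-1.30 ± 0.22, edgeR adjusted p = 0.00135). The phosphatase Cdc25b (ENSMUSG00000027330, chr2:131186949-131198497), which removes the inhibitory phosphates of CDK1, was the most abundant entry gene. Its values were 5.41, 6.03 and 6.74 FPKM in DN NK and 18.9, 19.7 and 19.3 FPKM in cNK. Cdc25b was therefore 3.06-fold lower in DN NK with little spread (-1.61 ± 0.07, edgeR adjusted p = 1.00e-06). Its relative Cdc25c was rare, with 0.480, 0.670 and 0.519 FPKM in DN NK against 1.65, 0.826 and 0.937 in cNK, 1 cNK library being well above the other two. Without the filter, Cdc25c was 2.05-fold lower in DN NK (-1.03 ± 0.29, edgeR adjusted p = 0.0146), and 12.7% of its exon length overlaps Gm3550. The FPKM ratio of Cdc25b to Cdc25c overlapped between the groups, at 8.99 to 13.0 in DN NK libraries and 11.5 to 23.8 in cNK libraries.

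Foxm1, a transcription factor that activates G2/M genes, averaged 1.16 ± 0.0849 FPKM in DN NK and 2.56 ± 0.151 FPKM in cNK (SD, n = 3 each). It was 2.11-fold lower in DN NK (-1.07 ± 0.10, edgeR adjusted p = 3.01e-05). Ccnf encodes cyclin F, a substrate receptor of an SCF ubiquitin ligase rather than a CDK activator. Its values were 1.36, 1.48 and 1.13 FPKM in DN NK and 1.72, 1.66 and 1.60 FPKM in cNK. The groups did not overlap, but the difference did not pass the test (-0.27 ± 0.14, edgeR adjusted p = 0.127).

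All 4 mitotic kinases fell, with a median log2 fold change of -1.27, though Nek2 and Aurkb passed the filter only through cNK libraries. Summed, they lay at 4.79, 5.30 and 4.83 FPKM in DN NK and 10.6, 11.6 and 9.95 FPKM in cNK. Nek2, a kinase of centrosome separation, lay at 0.448, 0.478 and 0.490 FPKM in DN NK and 1.48, 1.47 and 1.37 FPKM in cNK, a 2.91-fold lower level (edgeR adjusted p = 1.25e-05). Polo-like kinase 1 (Plk1), which acts from mitotic entry to cytokinesis, lay at 1.36, 1.45 and 1.43 FPKM in DN NK and 3.82, 4.18 and 3.22 FPKM in cNK. The DN NK libraries agreed closely with each other, and the level was 2.54-fold lower there (-1.34 ± 0.13, edgeR adjusted p = 4.16e-05). Aurora B (Aurkb), the kinase of the chromosomal passenger complex, averaged 1.02 ± 0.183 FPKM in DN NK and 2.45 ± 0.251 FPKM in cNK, 2.28-fold lower (edgeR adjusted p = 0.000243). Aurora A (Aurka), the kinase of spindle poles, fell least, with 2.07 ± 0.0875 FPKM in DN NK and 3.08 ± 0.127 FPKM in cNK (1.42-fold lower, edgeR adjusted p = 0.00213).

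Within the spindle checkpoint and APC/C group, all 6 tested genes fell, by 1.25-fold to 3.11-fold. The group summed to 16.1, 16.4 and 17.6 FPKM in DN NK and 27.6, 31.5 and 28.4 FPKM in cNK. Ube2c, the ubiquitin-conjugating enzyme that works with the APC/C, showed the largest fall, at 1.2, 1.23 and 1.32 FPKM in DN NK and 3.96, 4.62 and 3.59 FPKM in cNK (-1.64 ± 0.12, edgeR adjusted p = 1.13e-05). Of its exon length, 22.8% overlaps Tnnc2, which averaged 0.147 FPKM in DN NK and 0.214 FPKM in cNK. The checkpoint kinase Bub1 averaged 1.28 ± 0.0513 FPKM in DN NK and 2.56 ± 0.173 FPKM in cNK (1.92-fold lower), and its relative Bub1b (BubR1), a part of the inhibitor of the APC/C, 1.87 ± 0.262 FPKM in DN NK and 4.59 ± 0.313 FPKM in cNK (2.34-fold lower). Mad2l1, which binds and holds back CDC20, averaged 1.38 ± 0.129 FPKM in DN NK and 2.73 ± 0.368 FPKM in cNK (1.90-fold lower).

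The 2 most abundant genes of this group fell least. Cdc20, the APC/C activator that the checkpoint inhibits, lay at 4.18, 3.96 and 4.54 FPKM in DN NK and 5.73, 6.47 and 5.69 FPKM in cNK (1.35-fold lower, edgeR adjusted p = 0.00489). Bub3, which brings Bub1 and BubR1 to kinetochores, lay at 6.06, 6.53 and 6.53 FPKM in DN NK and 7.69, 9.09 and 8.16 FPKM in cNK (1.25-fold lower, edgeR adjusted p = 0.00294). The FPKM ratio of Bub3 to Bub1 was accordingly higher in DN NK, 4.53 to 5.23, than in cNK, 2.96 to 3.77. Ttk (MPS1), the kinase at the top of the checkpoint, stayed below 1 FPKM in every library, with 0.298 ± 0.0256 FPKM in DN NK and 0.942 ± 0.0373 FPKM in cNK, and was 3.15-fold lower in the fit without a filter (edgeR adjusted p = 4.89e-06).

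**Figure D2:**
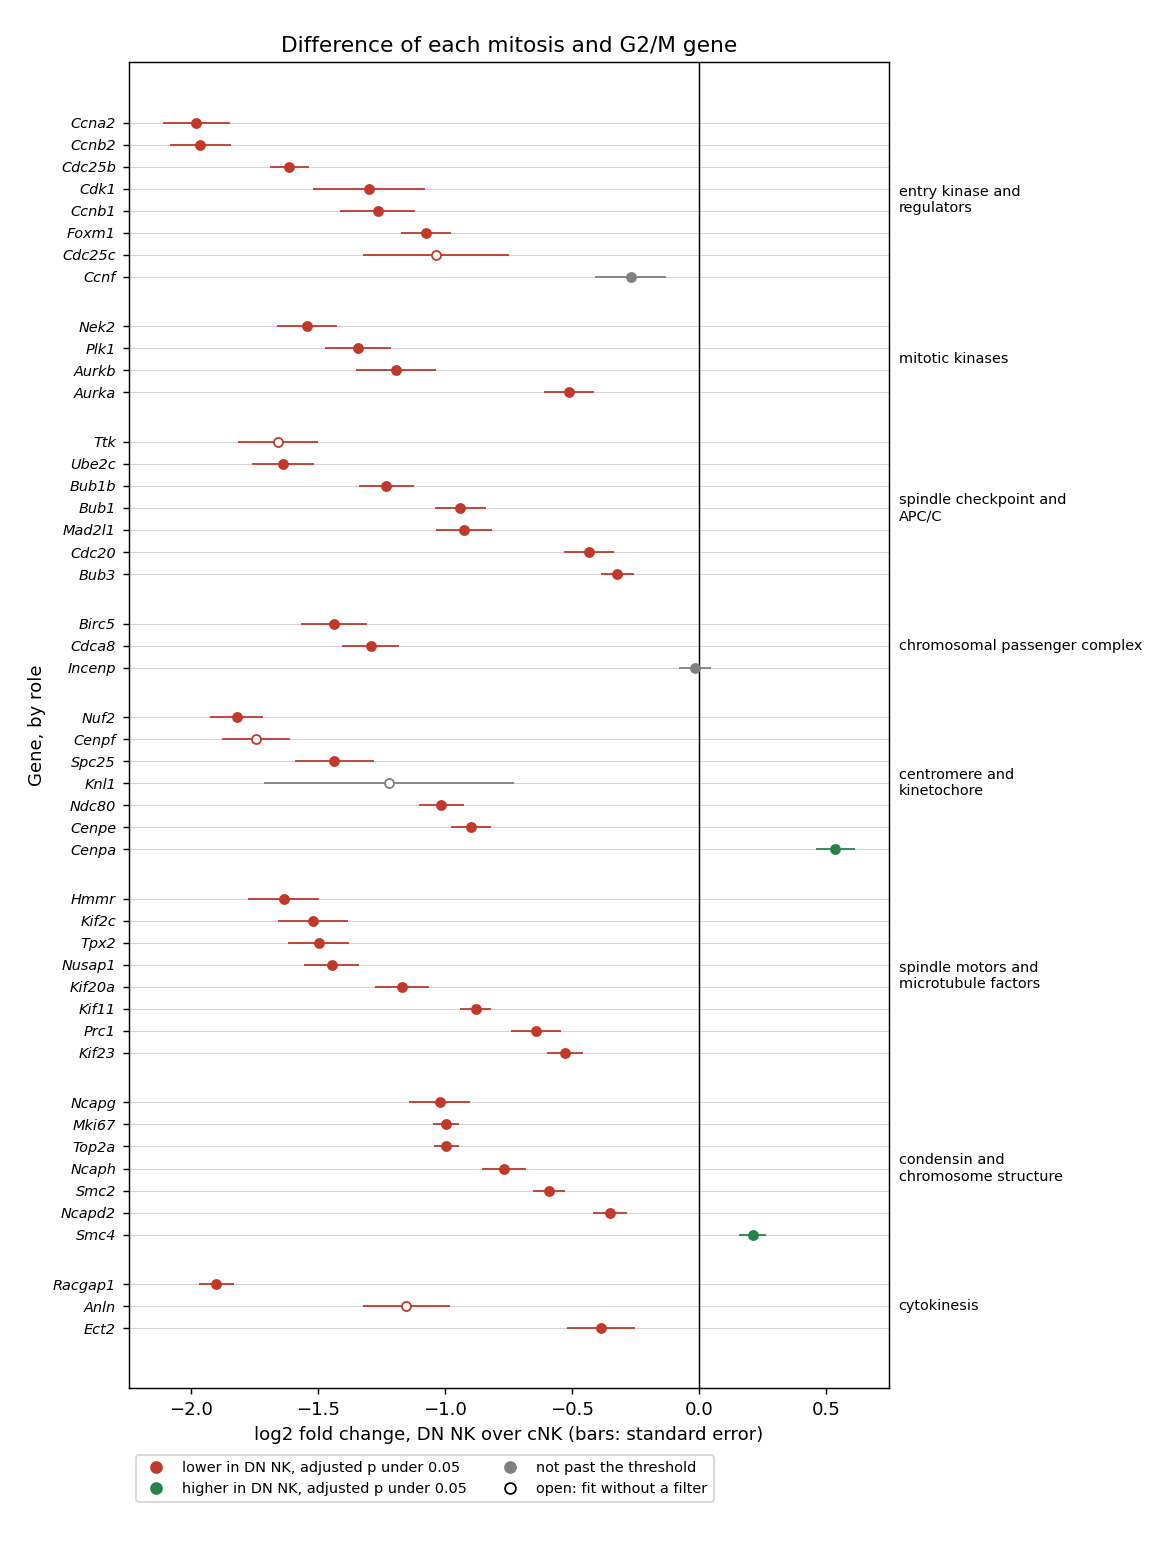
Log2 fold change of DN NK over cNK with its standard error for the 47 mitosis and G2/M genes, by role; open points come from the fit without a filter. The values run from -1.98 for Ccna2 to 0.54 for Cenpa, and each role holds members with large and with small differences.

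In the chromosomal passenger complex, which corrects faulty attachments and starts cytokinesis, the scaffold differed from its partners. Survivin (Birc5), which docks the complex on centromeres, lay at 1.21, 1.42 and 1.48 FPKM in DN NK and 4.12, 4.21 and 3.31 FPKM in cNK. It was 2.71-fold lower in DN NK (-1.44 ± 0.13, edgeR adjusted p = 2.96e-05). Borealin (Cdca8), its binding partner, lay at 0.988, 0.927 and 1.15 FPKM in DN NK and 2.67, 2.43 and 2.75 FPKM in cNK, 2.45-fold lower (edgeR adjusted p = 2.34e-05). Cdca8 passed the filter only through cNK libraries. Of its exon length, 4.48% overlaps 9930104L06Rik on the other strand, which averaged 1.92 FPKM in DN NK and 4.01 FPKM in cNK. Incenp (ENSMUSG00000024660, chr19:9872297-9899533), the scaffold that binds and activates Aurora B, lay at 12.4, 11.7 and 13.4 FPKM in DN NK and 13.1, 13.6 and 12.9 FPKM in cNK. These ranges overlapped and the difference did not pass the test (-0.02 ± 0.06, edgeR adjusted p = 0.845). The FPKM ratio of Incenp to Birc5 ran between 8.20 and 10.2 in DN NK and between 3.17 and 3.88 in cNK.

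Among the centromere and kinetochore genes, 4 of the 5 tested fell and Cenpa rose. Of those that fell, Nuf2, Spc25 and Cenpe passed the filter only through cNK libraries, and Ndc80 did not depend on this. Nuf2, Spc25 and Ndc80 encode subunits of the NDC80 complex, which holds microtubules at the kinetochore. Nuf2 lay at 0.403, 0.390 and 0.427 FPKM in DN NK and 1.52, 1.51 and 1.49 FPKM in cNK, with almost no spread within either group (3.53-fold lower, -1.82 ± 0.10, edgeR adjusted p = 2.91e-06). Spc25 averaged 0.561 ± 0.0880 FPKM in DN NK and 1.59 ± 0.133 FPKM in cNK, 2.70-fold lower (edgeR adjusted p = 7.83e-05). Ndc80 was the most abundant of these subunits. It lay at 3.45, 3.29 and 3.78 FPKM in DN NK and 6.95, 7.54 and 7.68 FPKM in cNK, 2.02-fold lower (edgeR adjusted p = 2.51e-05). The FPKM ratio of Ndc80 to Nuf2 was 8.43 to 8.87 in DN NK and 4.57 to 5.15 in cNK, so subunits of the same complex differed by unequal amounts.

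Cenpe, a kinesin that moves chromosomes to the spindle equator, averaged 1.01 ± 0.0235 FPKM in DN NK and 1.96 ± 0.0863 FPKM in cNK (1.86-fold lower, edgeR adjusted p = 2.70e-05). Cenpf, a large protein of the outer kinetochore, stayed under 1 FPKM in all libraries, at 0.211, 0.300 and 0.282 FPKM in DN NK and 0.834, 0.901 and 0.916 FPKM in cNK (3.34-fold lower without a filter, edgeR adjusted p = 7.73e-07). Knl1, the scaffold that recruits the Bub proteins, varied widely within both groups. Its values were 0.170, 0.311 and 0.518 FPKM in DN NK and 0.958, 0.874 and 0.486 FPKM in cNK, so the groups overlapped, and without a filter the difference did not pass (-1.22 ± 0.49, edgeR adjusted p = 0.148).

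Cenpa (ENSMUSG00000029177, chr5:30666777-30674830) encodes the histone H3 variant that marks centromeres. It lay at 9.48, 8.13 and 8.56 FPKM in DN NK and 6.06, 6.08 and 6.69 FPKM in cNK, so that all DN NK libraries were above all cNK libraries. The level was 1.45-fold higher in DN NK (log2 fold change 0.54 ± 0.08, edgeR adjusted p = 0.000373). It was also higher, between 0.42 and 0.58 on the log2 scale, under every alternative run.

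All 8 spindle motors and microtubule factors fell, with a median log2 fold change of -1.31, though Hmmr and Kif2c passed the filter only through cNK libraries. Their sums were 12.3, 12.7 and 13.1 FPKM in DN NK and 26.6, 29.1 and 27.2 FPKM in cNK. Hmmr, a microtubule-binding protein of spindle poles, lay at 0.402, 0.517 and 0.486 FPKM in DN NK and 1.33, 1.69 and 1.56 FPKM in cNK (3.10-fold lower, edgeR adjusted p = 2.17e-05). Tpx2, which activates Aurora A on the spindle, lay at 1.49, 1.26 and 1.63 FPKM in DN NK and 3.96, 4.85 and 4.12 FPKM in cNK (2.82-fold lower, edgeR adjusted p = 1.60e-05). Kif2c, a kinesin that takes microtubules apart at centromeres, averaged 0.357 ± 0.00843 FPKM in DN NK and 1.07 ± 0.0925 FPKM in cNK (2.87-fold lower). Nusap1, which bundles microtubules near chromosomes, averaged 1.55 ± 0.20 FPKM in DN NK and 4.41 ± 0.203 FPKM in cNK (2.72-fold lower).

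The most abundant motor was Kif11 (Eg5), which pushes spindle poles apart. It lay at 3.99, 4.08 and 4.20 FPKM in DN NK and 7.46, 7.82 and 8.26 FPKM in cNK, 1.84-fold lower with a narrow spread (-0.88 ± 0.06, edgeR adjusted p = 6.77e-06). The remaining genes of this group act at the central spindle. Kif20a averaged 1.27 ± 0.0489 FPKM in DN NK and 2.99 ± 0.288 FPKM in cNK (2.25-fold lower), but 29.3% of its exon length overlaps Cdc23 on the other strand. Prc1, which bundles antiparallel microtubules there, averaged 1.34 ± 0.156 FPKM in DN NK and 2.18 ± 0.0836 FPKM in cNK (1.56-fold lower), and 11.1% of its exon length overlaps Rccd1. Kif23, the motor of the centralspindlin complex, lay at 2.22, 2.14 and 2.2 FPKM in DN NK and 3.44, 3.33 and 3.11 FPKM in cNK (1.44-fold lower, edgeR adjusted p = 0.000276).

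Racgap1 (ENSMUSG00000023015, chr15:99620496-99651656) is the other subunit of centralspindlin and showed a far larger difference. It lay at 3.75, 4.12 and 4.44 FPKM in DN NK and 14.9, 16.7 and 16.3 FPKM in cNK. It was 3.73-fold lower in DN NK (-1.90 ± 0.07), with the smallest adjusted p of the members (edgeR, 2.72e-07). The FPKM ratio of Racgap1 to Kif23 was 1.69 to 2.01 in DN NK and 4.33 to 5.26 in cNK. Ect2, the RhoA exchange factor that Racgap1 activates, lay at 1.36, 1.45 and 1.74 FPKM in DN NK and 2.05, 2.37 and 1.79 FPKM in cNK, with the highest DN NK library just under the lowest cNK library. Its fall was small (1.31-fold, -0.39 ± 0.13, edgeR adjusted p = 0.0345). The call was lost without DN NK replicate 1 (adjusted p = 0.0968), DN NK replicate 2 (0.0848), cNK replicate 1 (0.0711) or cNK replicate 2 (0.113), and with the replicate number as a block (0.0646), over an edgeR, DESeq2 and limma range of 0.0147 to 0.113. Anln (anillin), which links the contractile ring to the membrane, averaged 0.313 ± 0.0772 FPKM in DN NK and 0.693 ± 0.0197 FPKM in cNK and was 2.22-fold lower without a filter (edgeR adjusted p = 0.000181). Together the 3 cytokinesis genes summed to 5.35, 5.86 and 6.58 FPKM in DN NK and 17.6, 19.8 and 18.8 FPKM in cNK, mostly from Racgap1.

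**Figure D3:**
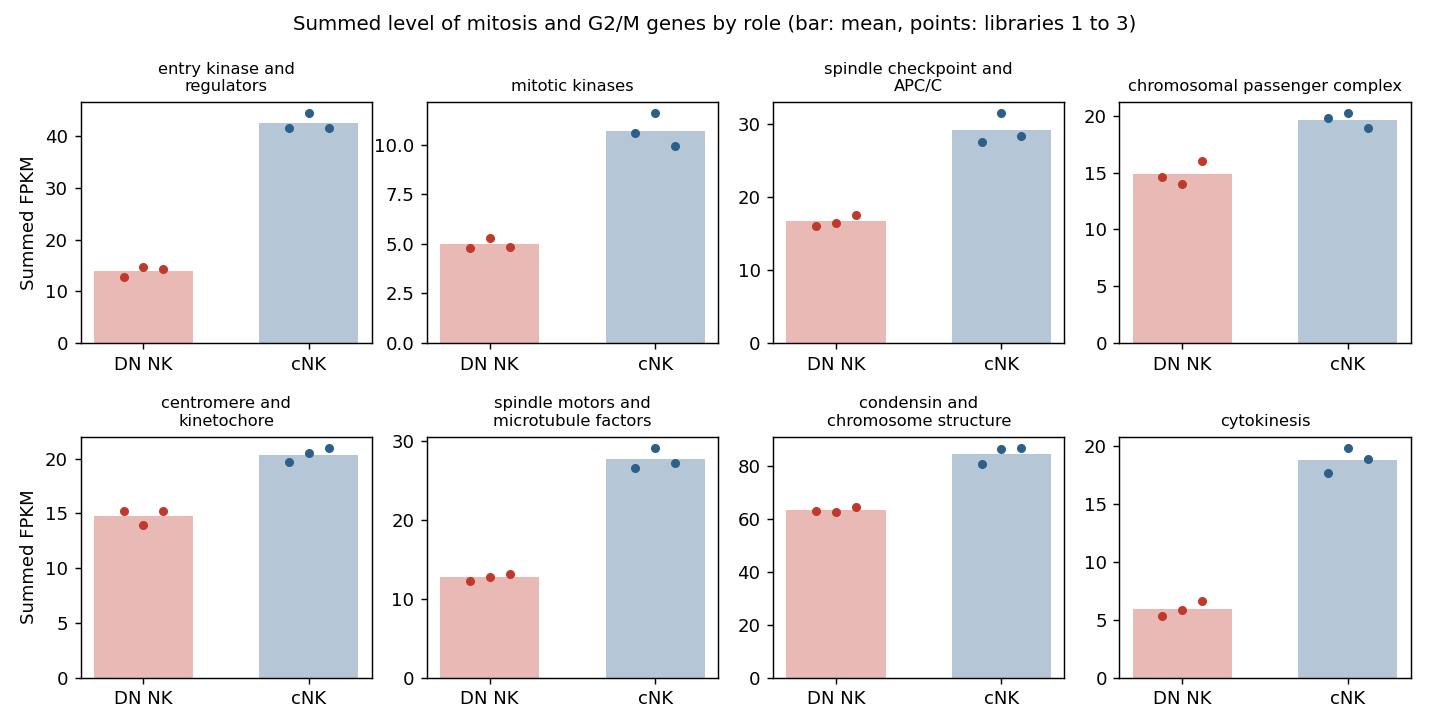
Summed FPKM of the members of each role in DN NK libraries (red) and cNK libraries (blue); bars are means of 3 libraries, points are libraries 1 to 3, and each panel starts at 0. The entry group shows 12.8 to 14.6 FPKM in DN NK and 41.6 to 44.5 FPKM in cNK, and the chromosomal passenger complex, where Incenp makes up most of the sum, 14.0 to 16.1 FPKM in DN NK and 18.9 to 20.2 FPKM in cNK.

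Condensin and chromosome structure genes were the most abundant and, as a group, the least different, with a median log2 fold change of -0.77 over 7 tested genes. They summed to 63.0, 62.8 and 64.5 FPKM in DN NK and 80.6, 86.6 and 86.8 FPKM in cNK. Mki67 (ENSMUSG00000031004, chr7:135689784-135716361) encodes Ki-67, the chromosome-coating protein used as a proliferation marker. It lay at 7.46, 8.20 and 8.32 FPKM in DN NK and 16.2, 16.4 and 17.3 FPKM in cNK, a 1.99-fold lower level (-1.0 ± 0.05, edgeR adjusted p = 1.69e-06). Top2a, the topoisomerase that untangles sister chromatids, lay at 6.97, 6.74 and 7.50 FPKM in DN NK and 14.2, 15.0 and 14.8 FPKM in cNK, also 1.99-fold lower (-0.99 ± 0.05, edgeR adjusted p = 1.50e-06).

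The condensin subunits split. Ncapg and Ncaph, both found only in condensin I, averaged 0.970 ± 0.0727 and 2.17 ± 0.177 FPKM in DN NK, against 2.06 ± 0.284 and 3.84 ± 0.146 FPKM in cNK, and were 2.03-fold and 1.70-fold lower. Ncapd2, the other condensin I subunit, averaged 6.76 ± 0.404 FPKM in DN NK and 8.99 ± 0.588 FPKM in cNK (1.27-fold lower, edgeR adjusted p = 0.00210). Of the ATPase pair that condensins I and II share, Smc2 averaged 5.64 ± 0.237 FPKM in DN NK and 8.86 ± 0.601 FPKM in cNK (1.5-fold lower, edgeR adjusted p = 6.56e-05). Its partner Smc4 (ENSMUSG00000034349, chr3:69004738-69034623) was the most abundant member and did not fall. Smc4 lay at 33.6, 32.4 and 32.4 FPKM in DN NK and 27.4, 30.7 and 30.7 FPKM in cNK, every DN NK library being above every cNK library by a small margin. It was 1.16-fold higher in DN NK (0.21 ± 0.05, edgeR adjusted p = 0.00706). This call was lost with upper quartile scaling (0.13, adjusted p = 0.0591) and with limma on log2(FPKM + 1) (0.15, adjusted p = 0.0537) or log2(FPKM + 0.1) (0.15, adjusted p = 0.0541). The FPKM ratio of Smc4 to Ncapg was 31.0 to 36.1 in DN NK and 13.3 to 15.6 in cNK. Ncapg shares 13.4% of its exon length with Lcorl on the other strand.

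The members were also split by their level. Of the 28 tested members with a mean under 5 FPKM over the 6 libraries, 27 fell and none rose, with a median log2 fold change of -1.25. Of the 14 at or above 5 FPKM, 11 fell and 2 rose, with a median of -0.73. The lower class holds the 11 members that passed the filter only through cNK. In a split added after seeing the data, which kept only genes with at least 1 FPKM in all 6 libraries, 16 of 17 members under 5 FPKM fell, with a median of -1.07, and the 14 above were the same in number, calls and median. Whether the 2 classes differ was not tested. All tested rows showed 28.2% lower and 26.5% higher below 5 FPKM, and 32.8% lower and 33.9% higher at or above it. Ccnb2, Racgap1 and Cdc25b were members above 5 FPKM with falls over 3-fold.

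**Figure D4:**
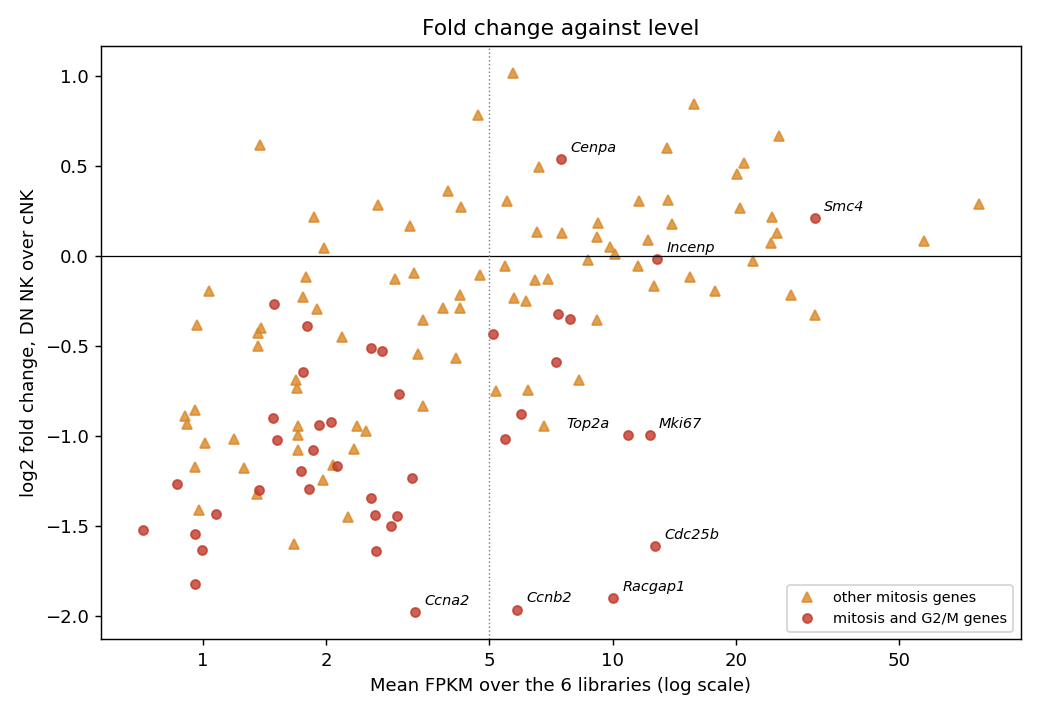
Log2 fold change of DN NK over cNK against mean FPKM over the 6 libraries (log axis) for 42 tested mitosis and G2/M genes (red circles) and 90 other tested mitosis genes (orange triangles); the dotted line marks 5 FPKM. Genes below the line at 5 FPKM lie mostly under 0, while above it Cenpa, Smc4 and Incenp stand at 0.54, 0.21 and -0.02 beside Racgap1 at -1.90.

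Another 101 mitosis genes that are not members, among them other kinetochore, spindle, cohesin, APC/C, entry and condensin genes, were less one-sided. Of 90 tested, 39 (43.3%) fell, 20 (22.2%) rose and 31 did not pass, with a median log2 fold change of -0.19, against 30.9% lower and 30.8% higher among all tested rows. Some of these genes passed the filter only through the cNK libraries, which favours genes lower in DN NK. The 43.3% and the counts of each list below include them and are given as a description. Among those with at least 1 FPKM in all 6 libraries and a mean under 5 FPKM, 19 of 34 fell and 5 rose. Of all such rows 28.4% were lower and 22.2% higher. At or above 5 FPKM 8 of 42 fell and 15 rose, against 33.0% of such rows lower and 33.7% higher. The genes named from each list are its largest changes past the threshold and do not stand for the list. Kif18b, Espl1, Esco2, Pbk and Melk, which are among them, passed the filter only through cNK libraries. Among other kinetochore genes 9 of 20 (45%) fell and 5 rose, led by Spc24, the partner of Spc25, at 1.24 ± 0.191 FPKM in DN NK and 2.91 ± 0.107 FPKM in cNK (2.23-fold lower), and Ska2, at 1.47 ± 0.203 FPKM in DN NK and 3.22 ± 0.318 FPKM in cNK (2.10-fold lower). Among other spindle genes 10 of 19 fell and 3 rose. There Kif18b, a kinesin of microtubule plus ends, averaged 0.804 ± 0.102 FPKM in DN NK and 2.54 ± 0.565 FPKM in cNK (3.02-fold lower), and Ckap2l 1.18 ± 0.0759 FPKM in DN NK and 3.36 ± 0.189 FPKM in cNK (2.73-fold lower). Of 13 cohesin, separase and securin genes 6 fell and 3 rose. Among those that fell, Espl1, Esco2 and Sgo1 passed the filter only through cNK libraries. Separase (Espl1), which cleaves cohesin, averaged 0.519 ± 0.0320 FPKM in DN NK and 1.44 ± 0.0967 FPKM in cNK (2.65-fold lower), and Esco2, which acetylates cohesin in S phase, 0.570 ± 0.00932 FPKM in DN NK and 1.34 ± 0.118 FPKM in cNK (2.25-fold lower).

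Of 18 APC/C and mitotic exit genes 8 (44.4%) fell and 5 rose. The APC/C subunits Anapc10 and Anapc13 averaged 1.58 ± 0.0329 and 4.52 ± 0.334 FPKM in DN NK, against 3.17 ± 0.357 and 9.07 ± 0.831 FPKM in cNK, both 1.92-fold lower. Of 17 other entry and DREAM genes 6 (35.3%) fell, a share near the 30.9% of all tested rows, and 3 rose, with the kinases Pbk at 0.753 ± 0.0689 FPKM in DN NK and 1.97 ± 0.288 FPKM in cNK (2.5-fold lower) and Melk at 0.750 ± 0.0588 FPKM in DN NK and 1.78 ± 0.0953 FPKM in cNK (2.26-fold lower). Of the 3 condensin II genes none fell and Ncapd3 was slightly higher (0.19 ± 0.06, edgeR adjusted p = 0.0237), though its groups overlapped. Genes on the higher side, chosen after their values were seen, included Lin54, the CHR-binding subunit of MuvB, at 7.53 ± 0.463 FPKM in DN NK and 3.87 ± 0.270 FPKM in cNK (2.02-fold higher), and the APC/C subunit Cdc27, at 19.96 ± 0.770 FPKM in DN NK and 11.6 ± 0.326 FPKM in cNK (1.8-fold higher). Cenpl, a centromere protein, averaged 5.83 ± 0.781 FPKM in DN NK and 3.53 ± 0.146 FPKM in cNK (1.72-fold higher), and Wapl, which releases cohesin from chromosomes, 30.7 ± 0.860 FPKM in DN NK and 20.2 ± 0.866 FPKM in cNK (1.59-fold higher). Below 5 FPKM 31 of 48 of these genes fell and 5 rose, or 19 of 34 and 5 among those with at least 1 FPKM in all 6 libraries, and at or above it 8 of 42 fell and 15 rose.

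DNA replication genes, which act in S phase, were given beside the members. Of 36 tested, 18 fell, 3 rose and 15 did not pass, with a median log2 fold change of -0.25, against 30.9% of all tested rows lower and 30.8% higher. Tyms, among those that fell, passed the filter only through the cNK libraries. At least 2-fold lower were 2 of 36, near the 4.69% of all tested rows. Those 2 were Rrm2, a subunit of ribonucleotide reductase, at 3.74 ± 0.762 FPKM in DN NK and 9.61 ± 0.900 FPKM in cNK (2.46-fold lower), and Rpa1, the large subunit of the single-stranded DNA binding protein, at 12.2 ± 0.877 FPKM in DN NK and 28.2 ± 2.35 FPKM in cNK (2.21-fold lower). The 3 that rose, named after their values were seen, were Pcna, Cdt1 and Ung. Pcna, the sliding clamp of DNA polymerases, was abundant, at 112 ± 3.12 FPKM in DN NK and 100.2 ± 4.46 FPKM in cNK (1.17-fold higher). Whether the members' median differed from that of these lists was not tested, since genes are not replicates.

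**Figure D5:**
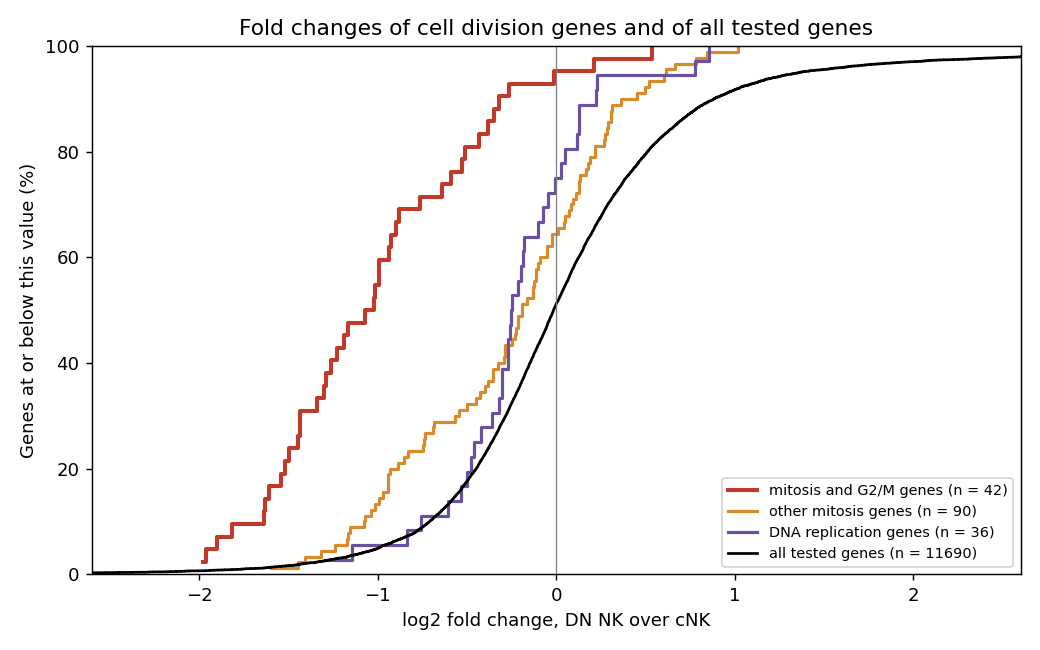
Share of genes (percent) at or below each log2 fold change of DN NK over cNK for 42 mitosis and G2/M genes (red), 90 other mitosis genes (orange), 36 DNA replication genes (purple) and all 11690 tested genes (black). The red line lies farthest to the left, with a median of -1.05 against -0.19, -0.25 and -0.02.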

How the data were processed

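Poly(A) RNA of 6 spleen libraries, 3 of DN NK and 3 of cNK, was sequenced as paired reads on a NovaSeq instrument, per the labels' protocols. GRCm38 (mm10), HISAT, StringTie and edgeR are named in the submitters' processing notes, with neither version nor setting. Per the file headers, the authors deposited an FPKM value and a count per gene and library. The deposited counts are estimated counts derived from coverage: in rows with 1 listed transcript, 89.3 to 91.2% of the low values are the product of FPKM, length and a factor of the library, rounded up, and 1 read pair is worth about 3.78 of them. They were already whole. Depth was 79798234 to 89526647 estimated counts per library.

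Rows that reached 1 FPKM in 3 or more libraries (11690 of 27763) were tested with edgeR 4.0.16 in R 4.3.3, using TMM factors of 0.972 to 1.03, robust quasi-likelihood with group as the only term, 2-sided tests and Benjamini-Hochberg adjustment over the tested rows, with a threshold of 0.05. The standard error is the log2 fold change divided by the root of F. The test was checked on simulated counts. Alternatives were DESeq2 1.42.0, limma 3.58.1 on log2(FPKM + 1) or log2(FPKM + 0.1), other scalings, other filters, a replicate block and leaving out each library. Means and SDs were taken over deposited FPKM.

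The members, their roles, the lists of other mitosis, DNA replication and 12 kinds of marker genes, and the motifs were chosen with earlier results of these data known. Every member is named. From each list of other mitosis and replication genes the 2 largest changes past the threshold are named, from each marker list the most abundant gene may be, and other genes given were chosen after their values were seen. Of 286 list entries 276 were found. The result of 1 marker list is not reported here. Promoter windows are RefSeq's on GRCm38.p6, the build of the files, and coordinates of genes are the deposited ones. Since separate mice are not stated, a p-value here covers the spread among these libraries, which may be technical.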

Additional observations from a re-analysis of the deposited data

How the results depend on the processing

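Of 649 values of single members recomputed under the alternatives, 639 kept their direction and side of the threshold. Ect2 (5 alternatives, among them the replicate block) and Smc4 (3) lost their call, and Incenp, not past in any fit, ran from -0.062 without DN NK replicate 3 to 0.023 without DN NK replicate 2 when 1 library was left out, and turned to 0.0016 without cNK replicate 2. With a mean of at least 5 FPKM, which leaves fewer genes, 11 of 14 members were lower, with a median log2 fold change of -0.75, and other mitosis genes gave 11 lower and 13 higher and DNA replication genes 11 lower. Upper quartile scaling and limma with either pseudocount left 1 member higher. Median-ratio factors and DESeq2 each gave 5 DNA replication genes higher. The members' median was -1.13 with upper quartile factors, -1.15 without a filter, -1.14 with edgeR's own filter and -0.73 with limma on log2(FPKM + 1), a scale that understates changes of low genes, and ran from -1.11 to -1.03 when 1 library was left out. Leaving out 1 library gave 37 to 38 members lower and 2 higher, 37 to 39 other mitosis genes lower and 15 to 19 higher, and 14 to 17 DNA replication genes lower and 3 to 4 higher.

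With the replicate number as a block, 37 members were lower and 2 higher, other mitosis genes gave 17 higher and DNA replication genes 16 lower. The deviations of same-numbered libraries correlated at 0.046, 0.036 and 0.16, so the numbers were not taken to pair the samples, and not every library correlated best with its own number. In the last 150 bases of the promoter windows, 69.2% of members held TTTGAA, against 9.23% of all genes and 5.74% of tested genes, and 64.1% held CCAAT, against 26.3% and 29.7%. Depth limits the least abundant members: Cdc25c had about 23.3 read pairs in 1 library.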
